A study of Mus musculus with 4 samples.

Results

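The genes examined were 44 cell cycle and DNA replication genes, chosen by name, out of 32395 genes or accessions on the arrays. They fall into 19 genes of the G1/S transition and DNA replication and 25 genes of G2 and mitosis (G2/M). All probes whose accession belongs to a listed gene were taken, which gave 55 probes. A filter required a signal well above background in at least 1 channel on 2 or more of the 4 arrays. It left 53 probes for 43 genes, 18 of them G1/S and 25 of them G2/M. Ccne2, an E-type cyclin, did not pass the filter, and the other Ccne1 probe was lost to spot flags. Where a gene had several probes, the brightest stood for it.

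The cells were macrophages grown from the bone marrow of male mice aged 6 weeks, over 7 days in culture with 25 ng/ml GM-CSF, a myeloid growth factor. The groups were Cdk5r1 knockout cells and wildtype cells, each after 6 h of E. coli lipopolysaccharide (LPS) at 100 ng/ml and in the basal state, and the strain label B6.129S4-Cdk5r1tm1Lht/J is given for both genotypes. Every array carried knockout RNA in Cy5 and wildtype RNA in Cy3, with 2 LPS arrays and 2 basal arrays. The labels call these biological replicates and do not name the animals, so the p-values measure only the spread between these samples. No dye swap was made, so a dye effect and the genotype cannot be told apart in a knockout to wildtype ratio. A constant dye effect cancels in LPS against basal within a channel and in the difference of the ratios between conditions.

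Cells copy their DNA in S phase and divide in mitosis. Genes of the first step (the MCM helicase, the enzymes that make deoxynucleotides, the E2F factors) are switched on late in G1 by E2F factors once the RB protein lets them go. Genes of the last step (cyclin B, CDK1, the Aurora and Polo kinases, spindle motors and kinetochore proteins) peak later and are controlled through CHR elements and CCAAT boxes, to which the DREAM and MuvB complexes and NF-Y bind. GM-CSF drives myeloid progenitors to proliferate, and LPS is known to stop macrophages from dividing. Cdk5r1 encodes p35, an activator of CDK5, a kinase best known from neurons and not required for the cell cycle as CDK1 is.

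The targeted gene was lower in the knockout channel on every array. The log2 ratio of Cdk5r1, knockout over wildtype, was -2.55 and -2.29 on the LPS arrays and -0.37 and -0.59 on the basal arrays. Median foreground intensities were 116 to 145.5 in the knockout channel and 76 to 97.5 in the wildtype channel. All 11 measured macrophage markers were well above background in every group. Among 10 neutrophil markers, 8 were well above background on both knockout LPS arrays, 9 on both knockout basal arrays, and 10 in both wildtype groups. The basal arrays differed from each other in the cell cycle genes. Their level on basal array 2 minus that on basal array 1 had a median of 0.70 (log2) in knockout cells and 0.39 in wildtype cells, and 41 of 43 genes were above 0 in each. Over all 23570 genes the medians were -0.01 and -0.003. Neutrophil markers moved the same way, with medians of 0.43 in knockout and 0.62 in wildtype cells, while macrophage markers had medians of -0.27 and -0.13. The part of these markers in the results was not tested. The LPS arrays differed the other way in the cell cycle genes. LPS array 2 minus LPS array 1 had a median of -0.28 in knockout and -0.31 in wildtype cells. In each, 11 of 43 genes were above 0, and the medians over all genes were 0.01 and 0.007. In bulk RNA, fewer cycling cells and less RNA per cell cannot be told apart.

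LPS lowered most of the cell cycle and replication genes in both genotypes. In knockout cells 32 of 43 genes fell and 3 rose, and in wildtype cells 32 fell and 3 rose (limma, Benjamini-Hochberg adjusted p under 0.05). Over all 23570 genes, 22.7% fell and 19.1% rose in knockout cells (41.8% in all), and 23.4% fell and 18.3% rose in wildtype cells (41.8% in all). The median log2 change of the 43 genes was -1.87 in knockout cells and -1.41 in wildtype cells, against -0.01 for all genes in each genotype. On 34 genes in knockout cells and 35 in wildtype cells, both LPS arrays lay below both basal arrays, which held for 39.7% and 38.8% of all genes. Macrophage markers moved with LPS too: their summed signal was 351282 to 387311 in knockout LPS cells against 539612 to 595138 in knockout basal cells, and 378324 to 391466 in wildtype LPS cells against 530892 to 566692 in wildtype basal cells. The sum of 12 progenitor genes was 16220 to 21342 in knockout LPS cells against 8984 to 9202 in knockout basal cells, and 14434 to 17900 in wildtype LPS cells against 7477 to 9472 in wildtype basal cells. Dendritic cell marker sums were 307750 to 342130 in knockout LPS cells against 108572 to 118881 in knockout basal cells, and 276194 to 286552 in wildtype LPS cells against 118019 to 130531 in wildtype basal cells. Sums of eosinophil, mast cell and basophil markers were 30935 to 39963 in knockout LPS cells against 6695 to 9231 in knockout basal cells, and 41564 to 53877 in wildtype LPS cells against 9119 to 11055 in wildtype basal cells. Of 8 erythroid markers, 4 were kept, with sums of 494 to 750 in knockout LPS cells against 1706 to 2188 in knockout basal cells, and 578 to 703 in wildtype LPS cells against 1469 to 1701 in wildtype basal cells. Each sum follows its brightest genes. The median log2 change of the measured macrophage markers was -0.54 in knockout and -0.40 in wildtype cells. For progenitor genes it was 0.93 and 0.91, and for dendritic markers 0.75 and 0.37. For eosinophil, mast cell and basophil markers it was 0.90 and 0.85, and for erythroid markers -0.04 and -0.02. Single genes reached 5.32 (progenitor), 5.42 (dendritic), 6.69 (eosinophil, mast cell and basophil) and -2.66 (erythroid) in knockout cells. The part of these markers in the fall of the cell cycle genes was not tested.

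**Figure D1:**
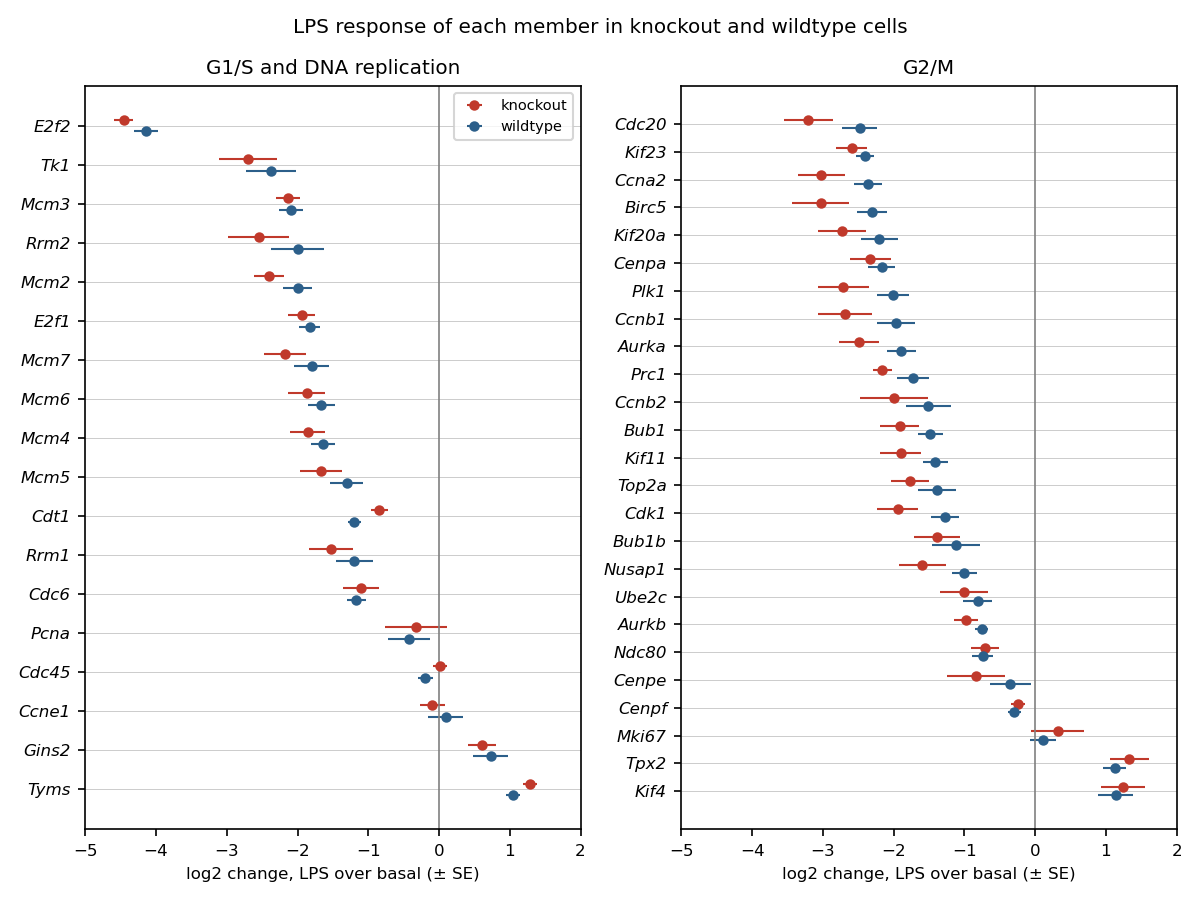
Log2 change of each of the 43 genes, LPS over basal, in knockout cells (red) and wildtype cells (blue), with the standard error of the limma fit, 2 arrays per condition. In both panels most points lie left of 0, and E2f2 lies farthest left at -4.46 and -4.15. Tyms, Tpx2 and Kif4, which passed, lie right of 0. Gins2 and Mki67 in both genotypes, Cdc45 in knockout cells and Ccne1 in wildtype cells also lie right of 0 and did not pass.

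Among the G1/S genes, 13 of 18 fell (72.2%) and 1 rose (5.56%) in each genotype. Of all genes, 22.7% fell and 19.1% rose in knockout cells, and 23.4% and 18.3% in wildtype cells. E2f2, an activator of the E2F family, had normalised log2 levels of 8.48 and 8.51 in knockout LPS cells against 12.81 and 13.10 in knockout basal cells. Its levels were 8.68 and 9.13 in wildtype LPS cells against 13.08 and 13.03 in wildtype basal cells. The groups were far apart in both genotypes, and the log2 changes were -4.46 ± 0.135 (SE, adjusted p = 0.000539) in knockout and -4.15 ± 0.171 (SE, adjusted p = 0.00046) in wildtype cells. E2f1, its relative, fell by 1.94 in knockout and by 1.83 in wildtype cells. Tk1, the thymidine kinase of the nucleotide salvage pathway, had levels of 8.11 and 7.28 in knockout LPS cells against 9.96 and 10.83 in knockout basal cells, a change of -2.70 ± 0.41 (SE, adjusted p = 0.00914). In wildtype cells Tk1 had 8.64 and 7.75 under LPS against 10.30 and 10.85 in the basal state, a change of -2.38 ± 0.353 (SE, adjusted p = 0.00717). All arrays of Tk1 separated by condition, although the replicates lay well apart.

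The enzymes of deoxynucleotide synthesis did not move together. Rrm2, the regulated subunit of ribonucleotide reductase, had levels of 9.16 and 8.87 in knockout LPS cells against 10.94 and 12.19 in knockout basal cells, and 10.48 and 9.88 in wildtype LPS cells against 11.70 and 12.65 in wildtype basal cells. It changed by -2.55 ± 0.434 (SE, adjusted p = 0.0123) in knockout and by -2.00 ± 0.375 (SE, adjusted p = 0.014) in wildtype cells, with the conditions apart in both. Rrm1, the large subunit, fell by 1.53 and by 1.20. Tyms, the thymidylate synthase, rose: its levels were 8.98 and 8.87 in knockout LPS cells against 7.60 and 7.68 in knockout basal cells, and 8.48 and 8.60 in wildtype LPS cells against 7.46 and 7.52 in wildtype basal cells. All LPS values of Tyms lay above all basal values, with changes of 1.29 ± 0.105 (SE, adjusted p = 0.00211) in knockout and 1.05 ± 0.0974 (SE, adjusted p = 0.00214) in wildtype cells.

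Every measured subunit of the replicative helicase, Mcm2 to Mcm7, fell in both genotypes. The changes ran between -2.40 for Mcm2 and -1.66 for Mcm5 in knockout cells, and between -2.10 for Mcm3 and -1.31 for Mcm5 in wildtype cells. Mcm2 had levels of 7.17 and 7.26 in knockout LPS cells against 9.34 and 9.90 in knockout basal cells, and 7.61 and 7.62 in wildtype LPS cells against 9.34 and 9.89 in wildtype basal cells. Mcm3 had 10.74 and 10.69 in knockout LPS cells against 12.64 and 13.07 in knockout basal cells, and 10.90 and 10.77 in wildtype LPS cells against 12.72 and 13.14 in wildtype basal cells. The LPS replicates of Mcm2 and Mcm3 were close and their basal replicates wider apart. Cdt1, which loads the helicase on origins, fell by 0.85 and by 1.20. Cdc6, its partner in loading, was not well above background on either knockout LPS array, and was at least 2.15-fold lower there than in knockout basal cells (adjusted p = 0.0266). In wildtype cells Cdc6 fell by 1.17 on the log2 scale.

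Of the G1/S genes, 4 did not pass in either genotype. Cdc45, which joins the helicase to make it active, changed by 0.02 ± 0.101 in knockout and by -0.19 ± 0.104 in wildtype cells (SE, adjusted p = 0.917 and 0.206). Gins2, a subunit of the complex that completes the active helicase, gave 0.61 ± 0.193 and 0.73 ± 0.246 (SE, adjusted p = 0.0641 and 0.0715). Pcna, the sliding clamp of the DNA polymerases, gave -0.33 ± 0.441 and -0.42 ± 0.298 (SE, adjusted p = 0.591 and 0.322). Its LPS replicates in knockout cells, 14.05 and 12.77, lay on either side of the basal values of 13.64 and 13.84. Ccne1, the cyclin E that drives entry into S phase, gave -0.10 ± 0.178 and 0.09 ± 0.248 (SE, adjusted p = 0.699 and 0.789).

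Of the 25 G2/M genes, 19 fell (76%) and 2 rose (8%) in each genotype. Among all genes, 22.7% fell and 19.1% rose in knockout cells, and 23.4% and 18.3% in wildtype cells. Cdc20, an activator of the anaphase-promoting complex (APC/C), had levels of 8.45 and 8.18 in knockout LPS cells against 11.05 and 12 in knockout basal cells, and changed by -3.21 ± 0.343 (SE, adjusted p = 0.00384). In wildtype cells Cdc20 had 9.23 and 8.81 under LPS against 11.21 and 11.79 in the basal state, a change of -2.48 ± 0.249 (SE, adjusted p = 0.00256). The lowest basal array of Cdc20 was well above the highest LPS array in each genotype. Birc5 (survivin), a subunit of the chromosomal passenger complex with Aurora B, had levels of 10.92 and 10.10 in knockout LPS cells against 13.12 and 13.97 in knockout basal cells. It had 11.58 and 11.12 in wildtype LPS cells against 13.47 and 13.84 in wildtype basal cells. Its changes were -3.03 ± 0.406 (SE, adjusted p = 0.00665) in knockout and -2.30 ± 0.212 (SE, adjusted p = 0.00211) in wildtype cells, with the conditions apart. Those values are from the brightest Birc5 probe. The other kept Birc5 probes gave smaller changes, -2.05 and -1.99 in knockout and -1.56 and -1.51 in wildtype cells.

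The 4 largest changes also included Ccna2 and Kif20a in knockout cells and Kif23 and Ccna2 in wildtype cells. Ccna2, the cyclin of S phase and early mitosis, had levels of 8.11 and 7.73 in knockout LPS cells against 10.50 and 11.37 in knockout basal cells, and changed by -3.02 ± 0.329 (SE, adjusted p = 0.00401). In wildtype cells Ccna2 had 8.81 and 8.45 under LPS against 10.80 and 11.20 in the basal state, a change of -2.37 ± 0.198 (SE, adjusted p = 0.00166). Kif20a, a motor of cytokinesis, had levels of 8.08 and 7.68 in knockout LPS cells against 10.17 and 11.06 in knockout basal cells, a change of -2.74 ± 0.34 (SE, adjusted p = 0.00552). Kif23, a motor of the same structure, had levels of 6.87 and 6.63 in wildtype LPS cells against 9.09 and 9.23 in wildtype basal cells, a change of -2.41 ± 0.127 (SE, adjusted p = 0.000691), which was -3.50 with processed signals. No LPS array of these genes reached a basal array. The kinases Plk1 and Aurka fell by 2.71 and by 2.49 in knockout cells and by 2.01 and by 1.89 in wildtype cells, and Top2a, the topoisomerase that untangles chromosomes, by 1.77 and by 1.39.

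Cenpa, Prc1, Ccnb2, Bub1, Nusap1 and Ndc80 fell in both genotypes too, with changes between -2.33 and -0.71 in knockout cells and between -2.17 and -0.74 in wildtype cells. Other G2/M genes gave only bounds or went the other way. Kif11, the motor that makes the spindle bipolar, was not well above background on either knockout LPS array and was at least 3.73-fold lower there than in knockout basal cells. Aurkb, the kinase of the passenger complex, was likewise at least 1.91-fold lower. Tpx2, which activates Aurora A on the spindle, rose by 1.33 ± 0.275 (SE, adjusted p = 0.0207) in knockout and by 1.12 ± 0.156 (SE, adjusted p = 0.00611) in wildtype cells on its brightest probe. The other Tpx2 probe, for another transcript, gave -0.03 in knockout and 0.13 in wildtype cells and did not pass, and the mean over both probes gave 0.65 in knockout cells and 0.63 in wildtype cells (adjusted p = 0.0511 and 0.00887). Kif4, a motor on chromosome arms, rose by 1.24 ± 0.312 (SE, adjusted p = 0.0346) and by 1.14 ± 0.25 (SE, adjusted p = 0.0222). Mki67, the gene of the proliferation marker Ki-67, had levels of 13.62 and 13.33 in knockout LPS cells against 12.64 and 13.67 in knockout basal cells, and 13.76 and 13.33 in wildtype LPS cells against 13.32 and 13.56 in wildtype basal cells. Its conditions overlapped, and the changes of 0.32 ± 0.37 and 0.11 ± 0.184 did not pass (SE, adjusted p = 0.536 and 0.674). Cenpe, a kinetochore motor, gave -0.84 ± 0.409 and -0.35 ± 0.292 (SE, adjusted p = 0.172 and 0.394), and Cenpf was not well above background in either knockout group. Bub1b, of the spindle checkpoint, passed in knockout cells with -1.38 and gave -1.12 in wildtype cells (adjusted p = 0.029 and 0.057). Ube2c, which charges the APC/C with ubiquitin, gave -1.01 in knockout cells and passed in wildtype cells with -0.81 (adjusted p = 0.0744 and 0.0306). The other Ube2c probe passed in knockout and wildtype cells, with -1.49 and -0.94 (limma, adjusted p over all probes 0.0439 and 0.0124).

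**Figure D2:**
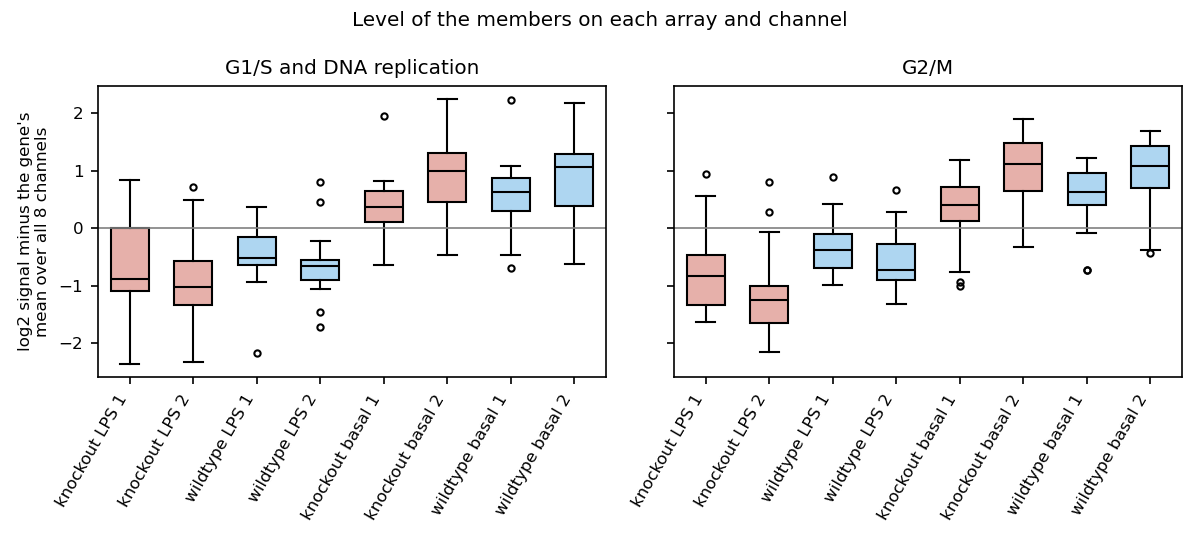
Normalised log2 signal of each gene minus its own mean over all channels, for every array and channel, with 18 G1/S genes on the left and 25 G2/M genes on the right; boxes give the quartiles and the median, whiskers reach 1.5 times the box height, knockout is red and wildtype blue. The LPS boxes lie below the basal boxes, and basal array 2 lies above basal array 1.

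Promoter sequences are shown for 5 genes to set the elements named above beside genes of both classes; Cdc45 was higher in knockout cells in both conditions. RefSeq promoter windows (GRCm38.p6, 250 bases before to 50 after the start) were found for 37 of the 44 genes, in 40 entries. Ccne2, Mcm4, Gins2, Ccna2, Aurkb, Kif20a and Tpx2 had no entry in the table used. Both strands were searched for the E2F motif as TTTCCCGC, TTTCGCGC, TTTGCCGC or TTTGGCGC, for the CHR as TTTGAA and for the CCAAT box as CCAAT. The windows of Ccne1, E2f1, Tk1, Tyms, Birc5 and Nusap1 held none of these letters. Starts were taken as listed and not checked, so a window may lie away from the promoter in use. An empty window therefore does not show that the promoter of a gene lacks a motif. Matches of different motifs overlapped in 1 member entry. Mcm6 (chr1:128359656-128359955, minus strand) has E2F matches at -110, -106 and -47 and CCAAT boxes at -57 and -14. Cdc45 (chr16:18811923-18812222, minus strand) has CHR matches at -240 and 11, CCAAT boxes at -13 and -2, and no E2F match. Cdk1 (chr10:69352863-69353162, minus strand) has an E2F match at -131, CHR matches at -71 and -15, and CCAAT boxes at -208, -80 and -48. Ccnb1 (chr13:100786437-100786736, minus strand) has CCAAT boxes at -99 and -67 and no CHR match in this window. Cdc20 (chr4:118437294-118437593, minus strand) has a CHR match at -18 and CCAAT boxes at -53 and -8. Positions give the first base of a match relative to the start, which is 1, and capitals mark the matches:
Mcm6: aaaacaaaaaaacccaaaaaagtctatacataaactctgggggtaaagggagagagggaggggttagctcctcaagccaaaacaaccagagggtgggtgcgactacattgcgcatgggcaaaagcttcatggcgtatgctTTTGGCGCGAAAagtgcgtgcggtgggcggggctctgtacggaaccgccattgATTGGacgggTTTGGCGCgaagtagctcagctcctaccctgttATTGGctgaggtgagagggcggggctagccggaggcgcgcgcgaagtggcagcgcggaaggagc
Cdc45: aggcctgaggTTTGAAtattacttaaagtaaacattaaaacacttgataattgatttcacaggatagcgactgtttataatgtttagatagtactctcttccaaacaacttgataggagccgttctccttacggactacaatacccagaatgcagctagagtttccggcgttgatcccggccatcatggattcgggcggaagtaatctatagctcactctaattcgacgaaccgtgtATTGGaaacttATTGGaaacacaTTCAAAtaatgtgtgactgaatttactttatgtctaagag
Cdk1: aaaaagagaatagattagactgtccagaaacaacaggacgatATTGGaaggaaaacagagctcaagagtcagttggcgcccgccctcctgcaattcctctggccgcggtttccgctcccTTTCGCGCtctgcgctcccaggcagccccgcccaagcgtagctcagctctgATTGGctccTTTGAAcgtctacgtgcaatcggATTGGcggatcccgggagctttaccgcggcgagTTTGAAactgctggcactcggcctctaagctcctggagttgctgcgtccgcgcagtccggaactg
Ccnb1: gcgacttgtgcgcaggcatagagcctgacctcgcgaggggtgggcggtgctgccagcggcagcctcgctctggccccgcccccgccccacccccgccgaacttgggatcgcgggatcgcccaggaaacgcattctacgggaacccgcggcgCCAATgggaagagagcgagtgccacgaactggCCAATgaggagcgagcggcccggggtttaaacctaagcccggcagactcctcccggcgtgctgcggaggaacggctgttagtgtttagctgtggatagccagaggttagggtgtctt
Cdc20: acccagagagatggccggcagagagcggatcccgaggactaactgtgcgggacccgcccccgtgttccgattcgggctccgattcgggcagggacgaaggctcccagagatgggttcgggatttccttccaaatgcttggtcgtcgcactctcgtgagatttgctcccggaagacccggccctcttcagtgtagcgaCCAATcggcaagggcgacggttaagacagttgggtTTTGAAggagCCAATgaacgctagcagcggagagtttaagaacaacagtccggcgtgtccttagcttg

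The E2F letters were found in 7 of 18 G1/S entries (38.9%) and 1 of 22 G2/M entries (4.55%), against 2.26% of all 32851 promoter windows. The CHR letters were found in 3 G1/S entries (16.7%) and 17 G2/M entries (77.3%), against 17.9% of all windows. For E2f2 they were in only 1 of its entries, at another start than its E2F match. CCAAT boxes were found in 12 G1/S entries (66.7%) and 19 G2/M entries (86.4%), against 37.4% of all windows. CHR and CCAAT letters occurred together in 16 G2/M entries (72.7%) and 3 G1/S entries (16.7%), against 6.95% of all windows. A match describes the letters only and is not a site shown to be bound.

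**Figure D3:**
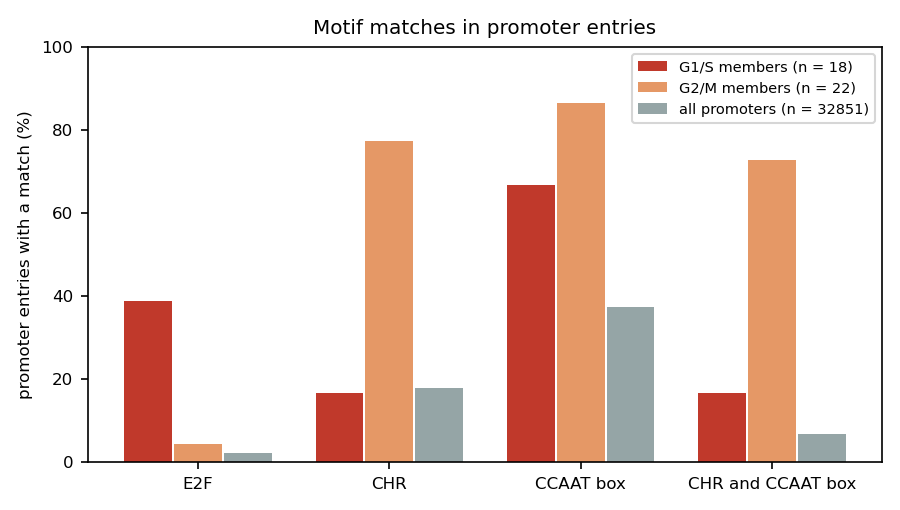
Share of promoter entries (%) with a match to each motif, for 18 entries of G1/S genes, 22 entries of G2/M genes and all 32851 entries. The E2F bar is highest for G1/S genes at 38.9%, and the CHR bar is highest for G2/M genes at 77.3%.

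After LPS, knockout cells had lower levels of these genes than wildtype cells. Of 43 genes, 24 were lower in knockout cells and 2 were higher, where 5.23% of all genes were lower and 7.17% were higher (12.4% in all). With arrays centred on their median in place of loess, 859 of all genes were lower and 4633 higher, against 1232 and 1690. Among the G1/S genes 8 of 18 were lower and 2 higher, and among the G2/M genes 16 of 25 were lower and none higher. The median log2 ratio was -0.42 for all 43 genes, -0.34 for the G1/S genes and -0.57 for the G2/M genes, against -0.0008 for all genes. Both LPS arrays were below 0 for 35 genes and above 0 for 4, where 34.7% and 35.4% of all genes were. The counts rest on both LPS arrays: without either of them, 1 gene, Rrm2, passed as lower, while 124 and 106 of all genes did, with the lone LPS array taken to vary like the basal arrays. Neutrophil markers were lower in knockout LPS cells as well, with 7 of 10 past the test, none higher, and a summed signal of 149142 to 162263 in knockout against 330208 to 368308 in wildtype LPS cells. Macrophage marker sums were 351282 to 387311 in knockout against 378324 to 391466 in wildtype LPS cells. The part of these cells in the difference was not tested.

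**Figure D4:**
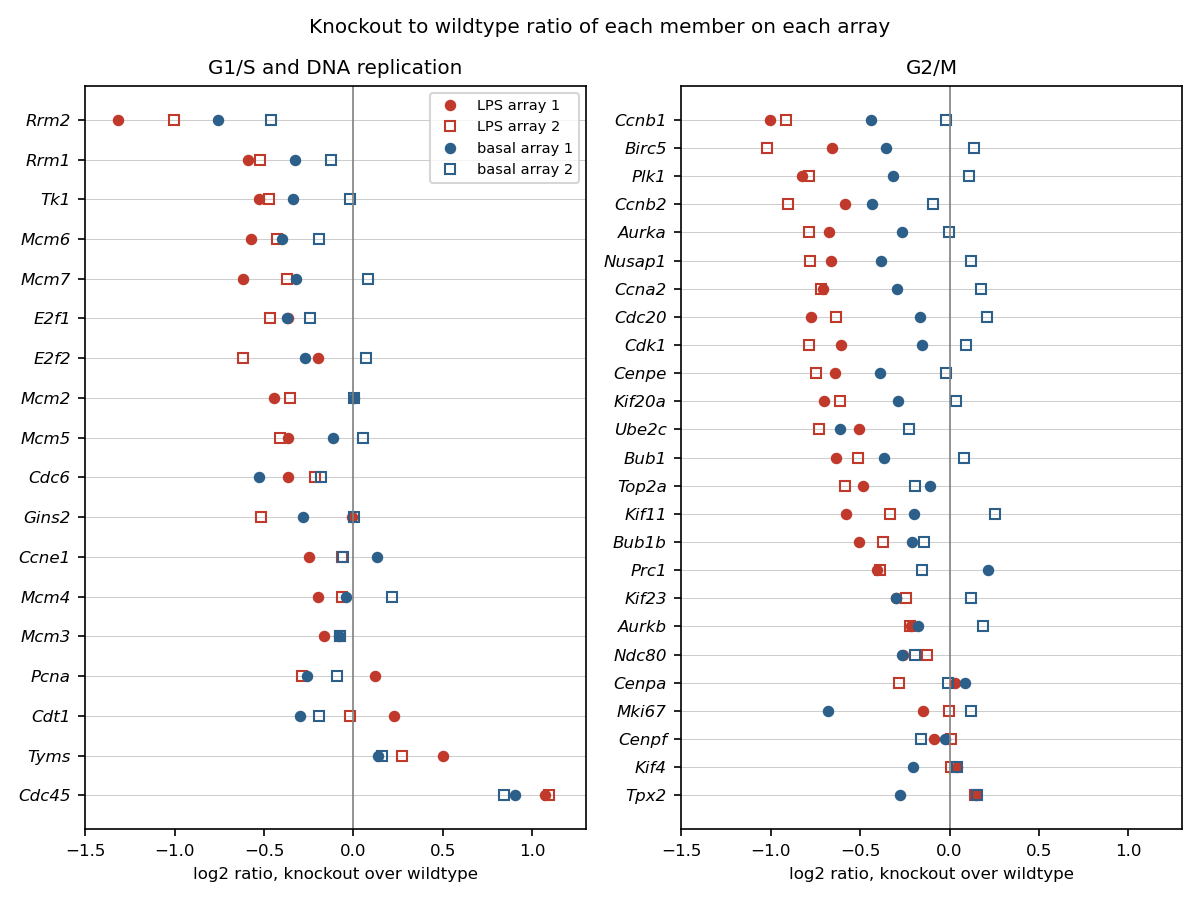
Log2 ratio of knockout over wildtype on each array for each gene, LPS arrays in red and basal arrays in blue, with filled circles for array 1 and open squares for array 2. Rrm2 lies farthest left, from -1.31 to -0.46, Cdc45 lies right of 0 on every array, and 22 of 25 G2/M genes lie left of 0 on each LPS array.

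The ratio of Rrm2 was -1.31 and -1.01 on the LPS arrays, a mean of -1.16 ± 0.107 (log2, SE, adjusted p = 0.00175), which is 2.24-fold lower in knockout cells. Rrm1 was -0.59 and -0.52, a mean of -0.56 ± 0.0772 (SE, adjusted p = 0.00707). Tk1 was -0.53 and -0.47, a mean of -0.50 ± 0.0916 (SE, adjusted p = 0.0186). Both subunits of ribonucleotide reductase and this kinase, all of deoxynucleotide supply, were lower on each LPS array. Mcm6, Mcm7, E2f1, Mcm2 and Mcm5 also passed, with means between -0.50 and -0.39. Ccne1, Mcm3, Mcm4, Pcna, Cdt1, Gins2 and E2f2 did not pass, with means between -0.41 and 0.10. Cdc6 did not pass either. With no signal well above background in knockout LPS cells, it had a bound of at least 1.22-fold lower. Cdc45 was higher in knockout cells, at 1.07 and 1.09 on the LPS arrays, a mean of 1.08 ± 0.067 (SE, adjusted p = 4e-04), or 2.12-fold; the Cdc45 mean was 1.97 with processed signals and 1.98 with the authors' value table. Tyms was 0.50 and 0.27, a mean of 0.39 ± 0.0795 (SE, adjusted p = 0.0273).

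Of the 16 G2/M genes that were lower in knockout LPS cells, Ccnb1 lay lowest and is described probe by probe. Plk1, the Polo kinase, had ratios of -0.82 and -0.78, a mean of -0.80 ± 0.106 (SE, adjusted p = 0.00574). Birc5 had -0.66 and -1.02, a mean of -0.84 ± 0.136 (SE, adjusted p = 0.0123). The other kept Birc5 probes gave means of -0.58 and -0.66. Ccnb2, the other B-type cyclin measured, had -0.59 and -0.90, a mean of -0.75 ± 0.112 (SE, adjusted p = 0.00962). Every one of these LPS ratios was below 0, and array 2 was the lower for Birc5 and Ccnb2. Aurka, Nusap1, Ccna2, Cdc20, Cdk1, Cenpe, Kif20a, Ube2c, Bub1, Top2a, Bub1b and Prc1 passed as well, with means between -0.73 and -0.40. Kif23, Ndc80, Cenpa, Mki67, Kif4 and Tpx2 did not pass, with means between -0.27 and 0.15. Kif11 and Aurkb did not pass either, and with no signal well above background in knockout LPS cells they had bounds of at least 1.37-fold and 1.13-fold lower. Cenpf did not pass and was not well above background in either LPS group, so no ratio is given. With processed signals and with the authors' value table it passed as higher, with 0.96 and 0.97 (limma, adjusted p = 0.0332 in each).

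Cdk1 and Ccnb1, the kinase and the cyclin that together start mitosis, had 3 kept probes each. On the brightest Cdk1 probe, A_55_P2048588, levels were 8.74 and 8.46 in knockout LPS cells, 9.35 and 9.25 in wildtype LPS cells, 10.15 and 10.93 in knockout basal cells, and 10.31 and 10.84 in wildtype basal cells. Probe A_55_P2016652 gave 6.57 and 6.41 in knockout LPS cells, 6.95 and 6.90 in wildtype LPS cells, 7.54 and 8.11 in knockout basal cells, and 7.64 and 7.92 in wildtype basal cells. Probe A_55_P2016647 gave 6.17 and 6.53 in knockout LPS cells, 6.21 and 6.45 in wildtype LPS cells, 6.55 and 6.83 in knockout basal cells, and 6.64 and 6.88 in wildtype basal cells, and was well above background on only 1 of the knockout LPS arrays. All 3 probes put LPS below basal, A_55_P2048588 and A_55_P2016652 put knockout below wildtype on both LPS arrays, and A_55_P2016647 overlapped between the genotypes. Their LPS ratios of knockout over wildtype averaged -0.70 ± 0.0891, -0.44 ± 0.0889 and 0.02 ± 0.0711 in the order of the probes above (SE, adjusted p over all probes 0.00491, 0.0261 and 0.91). The LPS changes were -1.94, -1.34 and -0.34 in knockout cells and -1.28, -0.85 and -0.43 in wildtype cells. The change on A_55_P2016647 did not pass in knockout or wildtype cells (adjusted p over all probes 0.197 and 0.0677).

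On the brightest Ccnb1 probe, A_55_P2065671, levels were 8.07 and 7.72 in knockout LPS cells, 9.08 and 8.63 in wildtype LPS cells, 10.06 and 11.12 in knockout basal cells, and 10.50 and 11.14 in wildtype basal cells. Probe A_55_P2128668 gave 6.57 and 6.57 in knockout LPS cells, 6.82 and 6.66 in wildtype LPS cells, 7.28 and 7.92 in knockout basal cells, and 7.41 and 7.86 in wildtype basal cells. Probe A_55_P1952256 gave 6.28 and 6.27 in knockout LPS cells, 6.64 and 6.51 in wildtype LPS cells, 7.17 and 7.61 in knockout basal cells, and 7.19 and 7.59 in wildtype basal cells, and was not well above background on either knockout LPS array, so that its knockout LPS level is an upper bound. All Ccnb1 probes put LPS below basal and knockout below wildtype after LPS. The LPS ratio averaged -0.96 ± 0.107 on A_55_P2065671, which passed, and -0.17 on A_55_P2128668, which did not (adjusted p over all probes 0.00285 and 0.227). On A_55_P1952256 knockout LPS cells were at least 1.23-fold lower than wildtype LPS cells and at least 2.17-fold lower than knockout basal cells (adjusted p over all probes 0.0421 and 0.00924). The LPS changes of these 2 probes were -2.69 and -1.03 in knockout cells and -1.96 and -0.90 in wildtype cells, and that of A_55_P1952256 was -0.82 in wildtype cells. Over the 7 genes with several kept probes, the probes had the same sign for 5 genes in knockout against wildtype after LPS, and for 6 and 7 genes in LPS against basal in knockout and wildtype cells.

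**Figure D5:**
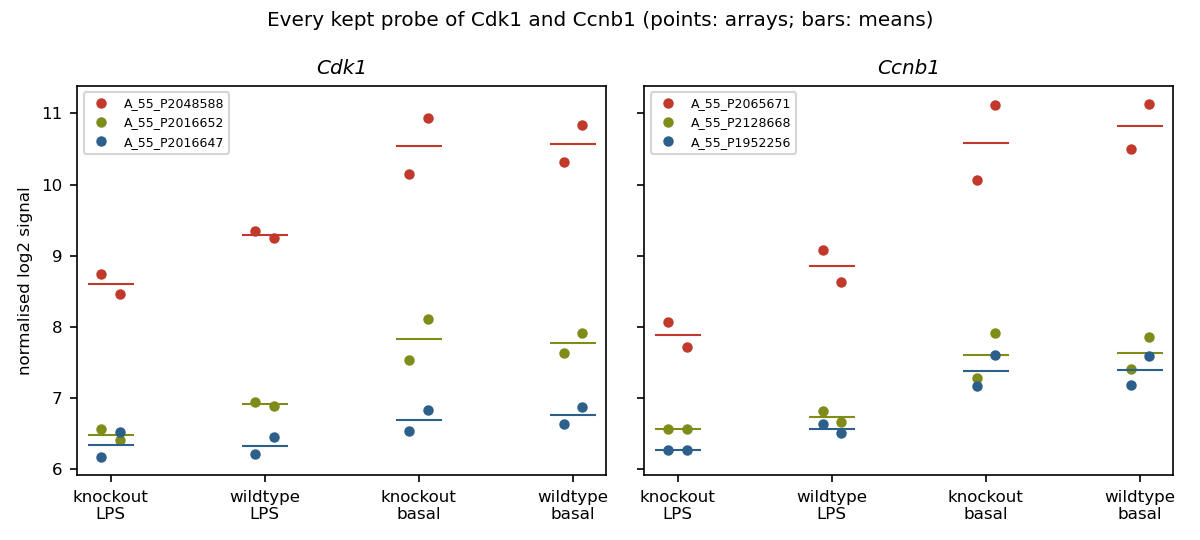
Normalised log2 signal of the 3 kept probes of Cdk1 (left) and of Ccnb1 (right) in knockout LPS, wildtype LPS, knockout basal and wildtype basal cells; points are arrays and bars are means. The brightest probe of each gene (red) shows the widest steps between groups, and the levels of different probes are not comparable.

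In the basal state, few of these genes differed between the genotypes. Of 43 genes, 1 was lower in knockout cells and 1 was higher (2.33% each), where 1.49% of all genes were lower and 3.37% were higher (4.87% in all). At an unadjusted p under 0.05, 9 of the 43 genes were lower and 1 was higher. That is a larger share lower and a smaller share higher than among all genes (9.23% and 10.5%). Of all genes 352 were lower and 795 higher, against 647 and 3812 with arrays centred on their median and 2285 and 1668 with channels scaled to their 75th percentile. Rrm2 had ratios of -0.76 and -0.46, a mean of -0.61 ± 0.107 (SE, adjusted p = 0.026). Cdc45 had 0.91 and 0.84, a mean of 0.87 ± 0.067 (SE, adjusted p = 0.00106). Both had the same sign on all 4 arrays. The median ratio of the 43 genes was -0.28 on basal array 1, with 37 genes below 0, and 0.005 on basal array 2, with 21 genes below 0. Their mean over both arrays had a median of -0.12, against 0.002 for all genes, and of 0.05 against 0.09 for all genes when arrays were centred on their median. Without basal array 1 or either LPS array no gene was lower, and without basal array 2 the 3 genes Rrm2, Mki67 and Ube2c were. Neutrophil markers were lower in knockout basal cells, 6 of 10 past the test, with sums of 126648 to 147451 in knockout against 181985 to 228523 in wildtype basal cells.

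Whether LPS widens the gap between the genotypes was tested as the difference of the ratios, LPS minus basal. None of the 43 genes passed in limma, where 0.123% of all genes were lower and 0.28% higher (0.403% in all), although 21 genes were lower and 1 higher at an unadjusted p under 0.05, against 5.13% and 5.25% of all genes. The median of this difference was -0.31 for the 43 genes, -0.20 for the G1/S and -0.43 for the G2/M genes, against -0.002 for all genes. The differences farthest below 0 among the G2/M genes were those of Ccnb1 with -0.73 ± 0.151, Birc5 with -0.73 ± 0.192 and Cdc20 with -0.72 ± 0.145 (SE, adjusted p = 0.148, 0.247 and 0.138). Without basal array 1, the 4 genes Ccnb1, Cdc20, Plk1 and Ccna2 passed as lower, with differences between -0.94 and -0.89. For Rrm2 the difference was -0.55 ± 0.151 (SE, adjusted p = 0.264), and for Cdc45 it was 0.21 ± 0.0948 (SE, adjusted p = 0.523).

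The G1/S genes were set against the G2/M genes on each array. After LPS, the median knockout to wildtype ratio of the G1/S genes minus that of the G2/M genes was 0.27 on LPS array 1 and 0.22 on LPS array 2, and 0.003 and -0.08 on the basal arrays. The median of the G2/M genes was the lower on both LPS arrays. With the classes narrowed to the Mcm, Cdc6, Rrm, Pcna and E2f genes (12) against the Ccnb, Aurk, Kif, Bub and Cenp genes (13), the differences were 0.21 and -0.02 on the LPS arrays and -0.03 and -0.08 on the basal arrays, so the sign was not the same on both LPS arrays. In that narrowed form 7 of 12 (58.3%) and 7 of 13 genes (53.8%) were lower in knockout LPS cells, against 5.23% of all genes. For LPS against basal, the median of the G1/S genes minus that of the G2/M genes was 0.15 in knockout cells and -0.06 in wildtype cells, and the wildtype value turned to 0.32 with processed signals. These class differences are descriptions of chosen genes and have no test.

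Other genes of the same pathways were counted for comparison. Of 50 further DNA replication and S-phase genes, 34 fell (68%) and 3 rose (6%) with LPS in knockout cells. In wildtype cells 37 fell (74%) and 4 rose (8%). Over all genes, 22.7% fell and 19.1% rose in knockout cells, and 23.4% fell and 18.3% rose in wildtype cells. Msh6, a mismatch repair protein, changed by -3.12 in knockout and by -3.22 in wildtype cells, Pold1, a catalytic subunit of DNA polymerase delta, by -2.38 in knockout cells, and Rpa1, which coats single-stranded DNA, by -2.07 in wildtype cells. Between the genotypes after LPS, 11 of the 50 (22%) were lower in knockout cells and 2 (4%) higher, against 5.23% and 7.17% of all genes, among them Rpa2 with -0.63, and Mcm8 and Ung, a uracil glycosylase, with 0.86 and 0.75. In the basal state 1 was lower (Gins1, -0.47) and 2 were higher (Ung, 0.62, and Mcm8, 0.39), 2% and 4% of the list, near the 1.49% and 3.37% of all genes.

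Of 55 further mitosis genes, 43 fell (78.2%) with LPS in each genotype, while 1 rose (1.82%) in knockout and 2 (3.64%) in wildtype cells. The shares of all genes were 22.7% lower and 19.1% higher in knockout cells, and 23.4% and 18.3% in wildtype cells. Aspm, a spindle pole protein, and Cdc25b, the phosphatase that activates CDK1, changed by -2.83 and -2.81 in knockout and by -2.48 and -2.78 in wildtype cells. Pttg1, securin, rose by 3.06 ± 0.146 (SE, adjusted p = 0.000848) in knockout and by 2.90 ± 0.162 (SE, adjusted p = 0.000782) in wildtype cells. After LPS, 26 of the 55 (47.3%) were lower in knockout cells and 2 (3.64%) higher, against 5.23% and 7.17% of all genes. Cdca8, a passenger complex subunit, had ratios of -0.97 and -0.94, a mean of -0.95 ± 0.0796 (SE, adjusted p = 0.00122), and Dlgap5, a spindle protein, was higher with a mean of 1.05 ± 0.0959 (SE, adjusted p = 0.00172). In the basal state 1 was lower, Psrc1 with -0.55, which is 1.82% of the list against 1.49% of all genes.

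The regulators of G1 moved in both directions with LPS. Of 23 G1 cyclins, their kinases and RB and E2F family members, 5 rose and 10 fell in knockout cells (21.7% and 43.5%), and 5 rose and 12 fell in wildtype cells (21.7% and 52.2%), against 19.1% and 22.7% of all genes in knockout and 18.3% and 23.4% in wildtype cells. Ccnd2, cyclin D2, had levels of 15.37 and 15.97 in knockout LPS cells against 10.54 and 11.28 in knockout basal cells, and 15.39 and 15.82 in wildtype LPS cells against 10.42 and 11.40 in wildtype basal cells. It rose by 4.76 ± 0.329 (SE, adjusted p = 0.0015) and by 4.69 ± 0.359 (SE, adjusted p = 0.00137), with the conditions far apart. Ccnd1, cyclin D1, fell by 2.30 and by 2.23, and Rbl1, the RB relative p107, rose by 2.62 and by 2.36. After LPS, 4 of the 23 (17.4%) were lower in knockout cells and 2 (8.7%) higher, against 5.23% and 7.17% of all genes, with Ccnd3, cyclin D3, at -0.83, E2f6, a repressor E2F, at -0.79 and E2f8 at 0.54.

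Among 21 CDK inhibitors and antiproliferative genes, 9 rose and 6 fell with LPS in knockout cells (42.9% and 28.6%), and 11 rose and 5 fell in wildtype cells (52.4% and 23.8%), against 19.1% and 22.7% of all genes in knockout and 18.3% and 23.4% in wildtype cells. Mxd1, an antagonist of MYC, rose by 3.62 and by 3.37, Gadd45b, a stress gene, by 3.55 and by 3.52, and Cdkn2b, the CDK inhibitor p15, by 3.20 in knockout cells. Gadd45g changed by -2.57 in wildtype cells. After LPS, 2 of the 21 (9.52%) were higher in knockout cells, near the 7.17% of all genes: Cdkn1c, the CDK inhibitor p57, with 1.09 ± 0.0818 (SE, adjusted p = 0.000844) and Cdkn2b with 1.04 ± 0.0971 (SE, adjusted p = 0.00183). Of the 3 (14.3%, against 5.23% of all genes) that were lower, Fbxo5, an inhibitor of the APC/C that promotes rather than stops the cycle, had the ratio farthest below 0, at -0.57. In the basal state Cdkn1c was higher in knockout cells, with 0.51 ± 0.0818 (SE, adjusted p = 0.0182).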

How the data were processed

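The 4 arrays were Agilent arrays with 2 channels. Spot intensity values of both channels and log10 ratios were deposited, made with Agilent Feature Extraction, which is version 11.5.1.1 in the file headers and 9.3.2.1 in the submitters' processing notes. The authors' value table holds log2 ratios that equal those of the processed signals, knockout over wildtype, plus a constant (-0.00202 to 0.00507; within 0.001 for 100% of 39030 probes; column medians 0.016, 0.0344, 0.0292 and 0.0306); how the constant was set is unknown. The deposited log10 ratios were not used.

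Median intensities were background-corrected (normexp, offset 50) and normalised with loess within arrays and Aquantile between arrays. limma 3.58.1 (R 4.3.3) fitted log2 ratios, or levels of 1 channel for LPS against basal, with lmFit and eBayes. P-values are two-sided and Benjamini-Hochberg adjusted over 23570 genes, threshold 0.05. The ± values give the SE with 2 arrays per condition. LPS and basal arrays share 1 estimate of the spread of a gene, so an SE does not describe 1 condition alone. Of 39429 probes 28635 were kept, and 27508 matched a RefSeq symbol (GRCm38.p6). The array design is on mm9, so no probe positions are given. No spot was saturated. All arrays share 1 slide, so no batch term was fitted, and the number of arrays limits the precision. Where every array of a group was too dim for the well-above-background flag, the fold is a bound ("at least") and open to dye bias. The code was tested on simulated data.

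Members, classes and lists were chosen with earlier results of these data known. Values on every array are given for Cdk1 and Ccnb1 and for up to 4 genes per class and comparison with the largest changes past the threshold; pathway lists give up to 3 genes, of which 1 is not reported here. Other genes were chosen after their values were seen. Same-numbered LPS and basal arrays did not deviate together (r = -0.161 for ratios, -0.0831 for knockout levels and -0.19 for wildtype levels), so they were not paired. The alternatives tried are under the dependence on the processing. Of 44 member genes, 37 had a promoter entry.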

Additional observations from a re-analysis of the deposited data

Results flagged for a closer look

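Differences of the knockout effect between the conditions drew attention for 3 genes. For Cdk5r1, the targeted gene, the log2 ratio of knockout over wildtype differed by -1.94, LPS minus basal (limma interaction, SE 0.133, adjusted p = 0.00431), with ratios of -2.55 and -2.29 on the LPS arrays and -0.37 and -0.59 on the basal arrays. The Cdk5r1 difference did not pass with processed signals (-2.11, adjusted p = 0.102), with the authors' value table (-2.11, adjusted p = 0.0935), or without LPS array 1 (-1.81, adjusted p = 0.0591) or LPS array 2 (-2.07, adjusted p = 0.0743); over all settings its adjusted p was 0.000654 to 0.102. The basal ratio of Cdk5r1 passed in the main fit, but not with processed signals, median centring, the replicate block or the authors' value table. It did not pass with any 1 array left out either. For E2f6, a repressor of the E2F family, the difference was -0.71 (SE 0.094, adjusted p = 0.0488), with ratios of -0.79 and -0.80 on the LPS arrays and -0.11 and -0.07 on the basal arrays. It did not pass with any 1 array left out (adjusted p = 0.0716 to 0.333), with the replicate block (0.115), with processed signals (0.209) or with the authors' value table (0.199), and its lowest adjusted p was 0.0213. For Mcm2, a helicase subunit, both LPS ratios were below 0, at -0.44 and -0.36, and both basal ratios just above it, at 0.01 and 0.01. The Mcm2 difference was -0.41 and did not pass the limma interaction (adjusted p = 0.196); the pattern of opposite signs itself was not tested.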

How the results depend on the processing

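With LPS, 24 to 33 of the 43 genes fell in knockout cells and 27 to 34 in wildtype cells under every setting run. After LPS, 16 to 30 were lower in knockout than in wildtype cells (main value 24), except that leaving out an LPS array left 1; over all arrays left out in turn the count was 1 to 25. The median ratio after LPS (main value -0.42) was -0.65 with processed signals, -0.65 with the authors' value table, -0.33 with median centring and -0.46 with 75th-percentile scaling, and -0.44 to -0.41 with 1 array left out. In the basal state the count of lower genes (main value 1) was 0 with processed signals and with the authors' table, 3 with 75th-percentile scaling (Cdc6, Cenpf and Rrm2) and 0 to 3 with 1 array left out. For the difference of the ratios it was 0 to 4 with 1 array left out.

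The median of the G1/S genes minus that of the G2/M genes moved with several settings. For knockout against wildtype after LPS (main value 0.23) it was 0.054 with the narrowed families, 0.43 with processed signals, 0.43 with the authors' table, 0.28 with no filter and 0.15 with the mean over probes. For LPS in knockout cells (main value 0.15) it was 0.012 with the narrowed families, 0.47 with processed signals, 0.22 with 75th-percentile scaling, 0.25 with no filter, 0.011 with the mean over probes and 0.080 to 0.33 with 1 array left out. For LPS in wildtype cells (main value -0.06) it was -0.25 with the narrowed families and turned to 0.32 with processed signals, 0.055 with 75th-percentile scaling, 0.11 with no filter and 0.11 without LPS array 1, in a range of -0.18 to 0.11 with 1 array left out. The causes were not tested. With all arrays kept, single changes past the threshold moved by over 1.5-fold in 23 cases over 15 genes and kept their direction. These came with processed signals, the authors' table or the mean over probes. Fits with 1 array left out were not counted.

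The fit with the replicate block gave 1 lower gene in the basal state, 24 after LPS and 0 for the difference of the ratios, and 30 and 31 genes that fell with LPS in knockout and wildtype cells. A crossed block, added after seeing the data, gave 3, 26 and 3 lower genes and 33 and 33 that fell. Over all genes, 1232 were lower and 1690 higher in knockout cells after LPS, against 778 and 916 with processed signals, 793 and 948 with the authors' table, and 2352 and 2680 with 75th-percentile scaling. In the basal state 795 genes were higher, against 448 with processed signals and 468 with the authors' table. The difference of the ratios passed for 29 lower and 66 higher genes, against 1 and 6 with processed signals, 1 and 7 with the authors' table, 56 and 172 with median centring, 56 and 204 with 75th-percentile scaling, and 44 lower with no filter and 14 lower with the replicate block. The 75th-percentile scaling moved the median LPS change of all genes to 0.38 in knockout and 0.35 in wildtype cells, with 10939 and 10935 genes higher against 4496 and 4324. With 2 arrays per condition, 1 left out leaves a lone array that is assumed to vary like the other condition.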
